A study of Mus musculus with 10 samples.

Results

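The heat shock chaperones described here are 10 mouse genes, Hspa1a, Hspa1b, Hspa8, Hsph1, Dnajb1, Hspb1, Hsp90aa1, Hsp90ab1, Hspd1 and Hspe1. Their probe sets were taken as those to which the array annotation gives exactly 1 gene symbol, and that symbol 1 of the 10. This found 22 probe sets of 9 genes, out of 45037 probe sets and 18193 single-symbol genes on the array; Hsp90ab1 was not matched to a probe set and is not analysed here. Although the genes are known together as cytosolic chaperones, the products of Hspd1 and Hspe1 work in the mitochondrial matrix. RNA came from individual fetal livers at embryonic day 14.5, all on a mixed B6 and 129 background, from 5 wild type fetuses and 5 with a Zfp36l2 knockout. Each liver was hybridised to 1 array. Zfp36l2 encodes an RNA-binding protein that promotes the decay of mRNAs with AU-rich elements. The labels call the second group knockout and give no further detail of the allele.

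Chaperones of the heat shock family bind unfolded proteins and help them to fold, be held or be degraded. HSP70 proteins work in cycles driven by ATP, in which J-domain proteins such as Dnajb1 deliver clients and start hydrolysis and HSP110 proteins such as Hsph1 exchange the nucleotide. HSP90 takes over clients from HSP70, and the chaperonin made of Hspd1 with its lid Hspe1 folds proteins imported into mitochondria. Many of these genes are switched on by heat shock factor under protein stress, Hspa1a and Hspa1b from a very low level, while Hspa8 is made at a high level at all times. In red cell precursors, the main cells of the fetal liver, HSP70 is known to shield the transcription factor GATA1 from cleavage.

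Stretches before the transcript start of 4 members are shown because the livers in which these genes were high or low are compared below. Capitals mark heat shock elements, written here as units GAA and TTC that alternate with 2 bases between them. All are from RefSeq (GRCm38.p6), 5′ to 3′ on the strand of the gene. The Hspa1b stretch is chr17:34959279-34959388 (minus strand), and the same 110 bases stand before Hspa1a at chr17:34972197-34972306. The Hspe1 stretch is chr1:55088038-55088097 (plus strand), and the Hsph1 stretch is chr5:149636337-149636466 (minus strand).
Hspa1b and Hspa1a: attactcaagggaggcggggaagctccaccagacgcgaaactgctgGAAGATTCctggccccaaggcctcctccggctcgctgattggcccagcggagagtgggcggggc
Hspe1: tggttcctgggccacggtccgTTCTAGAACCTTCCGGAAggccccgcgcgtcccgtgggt
Hsph1: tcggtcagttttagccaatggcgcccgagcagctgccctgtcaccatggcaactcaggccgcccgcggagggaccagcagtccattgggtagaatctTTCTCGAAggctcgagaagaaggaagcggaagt

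The windows of Hspa1a and Hspa1b, each 300 bases from 250 before the start to 50 after it, differed at 4 positions. The 4 units before Hspe1 lie at chr1:55088059-55088076, 89 to 72 bases before its start. The same bases, read on the other strand, lie 144 to 127 bases before the start of Hspd1 at 55087932, since these partner genes are transcribed away from each other. A longer annotated Hspd1 transcript starts at 55088243, so for it the element lies inside the gene. The promoter table holds 10 windows of 7 members (Hspa8, Hsp90aa1 and Hsp90ab1 are not in it), some with 2 starts whose windows can overlap. Of these windows 7 held an element of at least 2 units (GAANNTTC or TTCNNGAA, each its own reverse complement), against 15.1% of all 32851 windows. Elements of at least 3 units, the same pattern extended by 1 unit and searched on both strands, stood in 4 of the 10 windows, those of Hspd1, Hspe1 and Hsph1 (both starts), against 0.603% of all windows, and every one of them also holds the shorter pattern. In Hsph1 that longer match lies after the start. CCAAT, on either strand, stood in 6 of the 10 windows (37.4% of all windows), and TATAAA, on the strand of the gene, in 0 (8.32%). Neither Dnajb1 window held a heat shock element. The members are classical targets of heat shock factor, so a share of elements above that of all windows follows from their choice. Nor are the windows independent: Hspd1 and Hspe1 hold the same element, and the windows of Hspa1a and Hspa1b are near-copies. All motifs are matches of letters and were not tested as binding sites.

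None of the chaperones was called different between the genotypes. Of the 22 probe sets 20 passed the filter on dim probe sets, and limma called 0 of them at an adjusted p under 0.05, where 0.211% of all 27022 tested probe sets were called, or 0.328% of 12821 genes each taken at its brightest probe set. At an unadjusted p under 0.05, 1 member probe set was higher in the knockout (5.01% of all) and 2 were lower (4.74% of all). Those 3 in all became 0 without wild type replicate 2 or knockout replicate 2, 7 without knockout replicate 5 and 9 with the replicate number as a block. For 0 of the 20 did the values of the genotypes stay apart without overlap, against 1.10% of all probe sets that were higher in every knockout liver and 1.17% that were lower in every one. The median log2 change of the 9 genes was 0.069, against 0.00018 over all genes, and 7 of the 9 changes were above 0, as were 50.1% of all genes; without wild type replicate 5 the count was 4 of 9. It includes Hspa1a, which is above the floor in 2 knockout livers alone. All values below are intensities after quantile normalization, in linear units of the array. Log2 changes are knockout minus wild type with values under 16 set to 16, each with the standard error of the limma fit. Values in wild type and knockout livers are given in the order of replicates 1 to 5. The titles do not say whether livers of the same number share a litter or batch. A probe set's level depends on its probes, so levels are not compared between genes. The array was read from bulk tissue, where fewer cells of a type and less RNA per cell cannot be told apart.

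**Figure D1:**
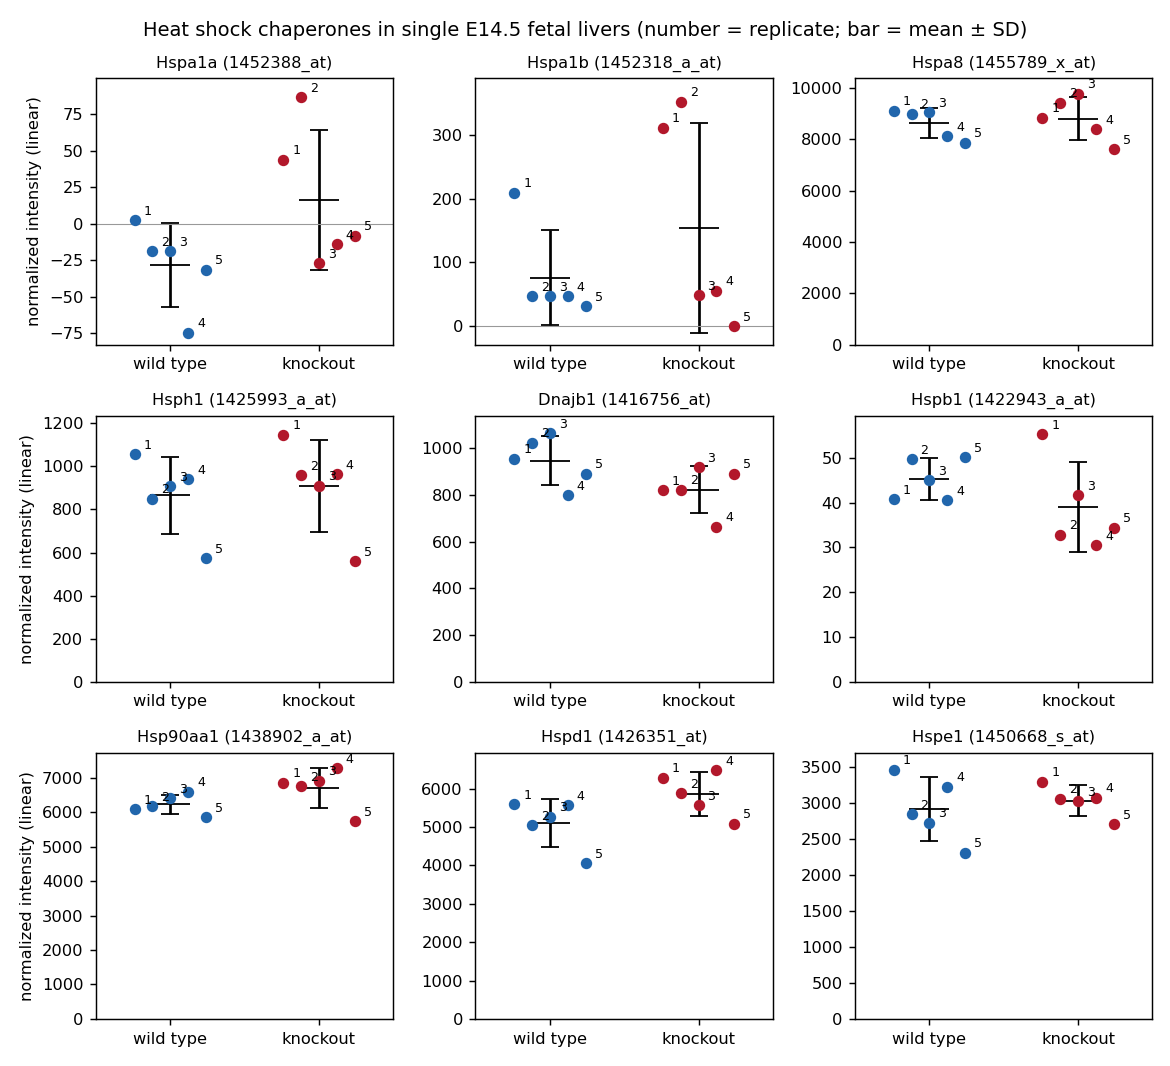
Normalized intensity (linear, y axis) of the brightest probe set of each of the 9 genes in 5 wild type (blue) and 5 knockout (red) livers; each point is 1 liver with its replicate number, the long tick is the mean and the bar the SD. The genotypes overlap in every panel; Hspa1b is at 209 or above in wild type replicate 1 and knockout replicates 1 and 2 and at 55.3 or below in the other livers.

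Hspa1b, an HSP70 with little expression in unstressed cells, differed more between livers of 1 genotype than between genotypes. Its brightest probe set read 209, 46.1, 46.7, 46.4 and 30.1 in wild type livers and 312, 353, 48.3, 55.3 and -0.851 in knockout livers. Wild type replicate 1 and knockout replicates 1 and 2 were thus high and the other 7 livers low, with both genotypes in each set. The group means were 75.7 ± 75.0 and 153 ± 165 (SD, n = 5), and the log2 change of 0.58 ± 0.72 had a 95% interval from -0.95 to 2.11 (limma adjusted p = 0.860). Hspa1b rested on single livers, with a log2 change of 0.073 when knockout replicate 2 was left out, 0.12 for knockout replicate 1 and 1.18 for knockout replicate 5, whose value lies under the floor.

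The same 3 livers were the highest on both other Hspa1b probe sets. The second probe set read 185, 38.4, 31.3, 13.4 and 14.9 in wild type and 248, 284, 54.4, 20.8 and 6.28 in knockout livers. The dimmest read 93.1, 20.3, 7.24, 4.56 and 14.8 against 148, 170 (169.9 before rounding), 28.6, 35.4 and 21.2. Their log2 changes were 0.90 ± 0.80 and 1.22 ± 0.61 (limma adjusted p = 0.785 and 0.552), with 3 livers under the floor on each. With genotype means removed, the 3 probe sets correlated over the 10 livers at 0.94 to 0.96. They read the same RNA samples and are annotated to the same gene, so they may share targets.

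Hspa1a, the neighbour and near-copy of Hspa1b, was above the floor of 16 in knockout replicates 1 and 2 alone, at 43.7 and 86.5. Wild type values ran from -74.6 to 2.36, with the highest in replicate 1, and the other knockout values from -27.1 to -8.29. With 8 livers under the floor, its log2 change of 0.78 ± 0.41 (limma adjusted p = 0.589) depends on where the floor is set and no fold is given. Because the transcripts are so alike, signal of 1 gene on probes for the other cannot be told apart here.

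Hspa8, the constitutive HSP70, was nearly level. Its brightest probe set read 9104, 8987, 9053, 8123 and 7859 in wild type and 8833, 9426, 9765, 8389 and 7611 in knockout livers. The lowest liver of each genotype was replicate 5. Means were 8625 ± 588 and 8805 ± 852 (SD, n = 5), a log2 change of 0.027 ± 0.070 with a 95% interval from -0.12 to 0.18, or a knockout level between 0.919 and 1.13 times that of wild type (limma adjusted p = 0.949). Another 2 bright probe sets had changes of 0.035 ± 0.096 and -0.030 ± 0.098 (limma adjusted p = 0.951 and 0.958).

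The remaining Hspa8 probe set was dimmer and did not follow the others. It averaged 218 ± 71.3 and 237 ± 47.8 (SD, n = 5; log2 change 0.15 ± 0.18, limma adjusted p = 0.859) and was highest in wild type replicate 1 at 340.2 and in knockout replicate 1 at 314. With genotype means removed it correlated with the 3 bright probe sets at -0.0047 to 0.26, while those correlated with each other at 0.86 to 0.94. What part of the transcript each reads was not analysed here.

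Dnajb1, a J-domain partner of HSP70 that is induced with it under heat stress, was the member lowest in knockout relative to wild type among bright genes. Its brightest probe set read 955, 1023, 1065, 798 and 890.4 in wild type and 820.1, 822, 917, 663 and 890.7 in knockout livers. The genotypes overlapped, although 0 of the 5 knockout livers lay above the wild type mean. Means were 946 ± 106 and 823 ± 98.8 (SD, n = 5), a log2 change of -0.20 ± 0.093 with a 95% interval from -0.40 to -0.0049 (limma adjusted p = 0.496, exact permutation p = 0.111, two-sided). The change was -0.13 without knockout replicate 4 and -0.14 with median scaling. The other Dnajb1 probe set read 1099, 916, 914, 765 and 889 in wild type and 1066, 644, 750.3, 659 and 740.5 in knockout livers, highest in replicate 1 of each genotype, with a change of -0.26 ± 0.12 (limma adjusted p = 0.498, exact permutation p = 0.119). These 2 probe sets are those lower at an unadjusted p under 0.05.

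Hsph1, an HSP110 that acts as nucleotide exchange factor for HSP70, varied 2.05-fold between its highest and lowest liver. It read 1056, 849.5, 907, 939.9 and 575 in wild type and 1148, 960.0, 910.4, 964 and 561 in knockout livers. Replicate 1 was the highest and replicate 5 the lowest liver in each genotype. Means were 865 ± 179 and 909 ± 214 (SD, n = 5), a log2 change of 0.061 ± 0.17 with a 95% interval from -0.30 to 0.43 (limma adjusted p = 0.952). Its sign turned without wild type replicate 5 (-0.080) or knockout replicate 1 (-0.033). The second Hsph1 probe set, at 437 ± 103 and 488 ± 96.0 (log2 change 0.17 ± 0.16, limma adjusted p = 0.802), followed the first over livers with a correlation of 0.94 once genotype means were removed.

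Hspb1, a small heat shock protein that holds unfolded proteins without using ATP, was dim. Its brighter probe set read 40.8, 49.8, 45.0, 40.5 and 50.1 in wild type and 55.3, 32.9, 41.7, 30.5 and 34.4 in knockout livers. Knockout replicate 1 was the highest of all 10 and knockout replicates 2, 4 and 5 the lowest. The log2 change was -0.24 ± 0.24 (limma adjusted p = 0.817), or -0.38 without knockout replicate 1 and -0.13 on the scale of log2 of value plus 32. On its other probe set every liver was under the floor, with values of -22.2 to 8.62, and it was not tested.

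Hsp90aa1, the stress-responsive cytosolic HSP90, had 5 probe sets. The brightest read 6082, 6173, 6415, 6603 and 5863 in wild type and 6855, 6756, 6916, 7280 (7279.5 before rounding) and 5748 in knockout livers. Of the knockout livers 4 lay above every wild type liver, and knockout replicate 5 was the lowest of all 10. Means were 6227 ± 288.5 and 6711 ± 574 (SD, n = 5), a log2 change of 0.10 ± 0.063 with a 95% interval from -0.029 to 0.24 (limma adjusted p = 0.631). The change was 0.16 without knockout replicate 5 (limma adjusted p = 0.340) and 0.17 with median scaling (limma adjusted p = 0.351).

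The other probe sets of Hsp90aa1 did not all share that sign. In order of brightness the next 3 had changes of -0.040 ± 0.086, 0.11 ± 0.073 and 0.11 ± 0.10 (limma adjusted p = 0.932, 0.664 and 0.781). The dimmest had values of -15.3 to 21.9, with 8 livers under the floor, and was not tested.

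Hspd1, the mitochondrial chaperonin, was the member probe set higher in the knockout at an unadjusted p under 0.05. It read 5601, 5054, 5267, 5574 and 4058 in wild type and 6285, 5880.3, 5574, 6487 and 5083 in knockout livers. Of the knockout livers 4 were at or above 5574, the second highest wild type value, and wild type replicate 5 was the lowest of all. Means were 5111 ± 630.4 and 5862 ± 561 (SD, n = 5), a log2 change of 0.20 ± 0.087 with a 95% interval from 0.018 to 0.39 (limma adjusted p = 0.456, exact permutation p = 0.0794, two-sided). Leaving out wild type replicate 5 gave a change of 0.12.

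Hspe1, the co-chaperonin that closes the Hspd1 barrel, was measured by 2 probe sets. The brighter read 3460 (3459.6 before rounding), 2843, 2721, 3219 and 2307 in wild type and 3291, 3057, 3023, 3071 and 2699 in knockout livers. The single highest and the single lowest liver were both wild type. The log2 change was 0.069 ± 0.090 with a 95% interval from -0.12 to 0.26 (limma adjusted p = 0.871), and it was -0.012 without wild type replicate 5. The dimmer probe set averaged 1161 ± 263 and 1367 ± 205 (SD, n = 5; log2 change 0.25 ± 0.13, limma adjusted p = 0.592).

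**Figure D2:**
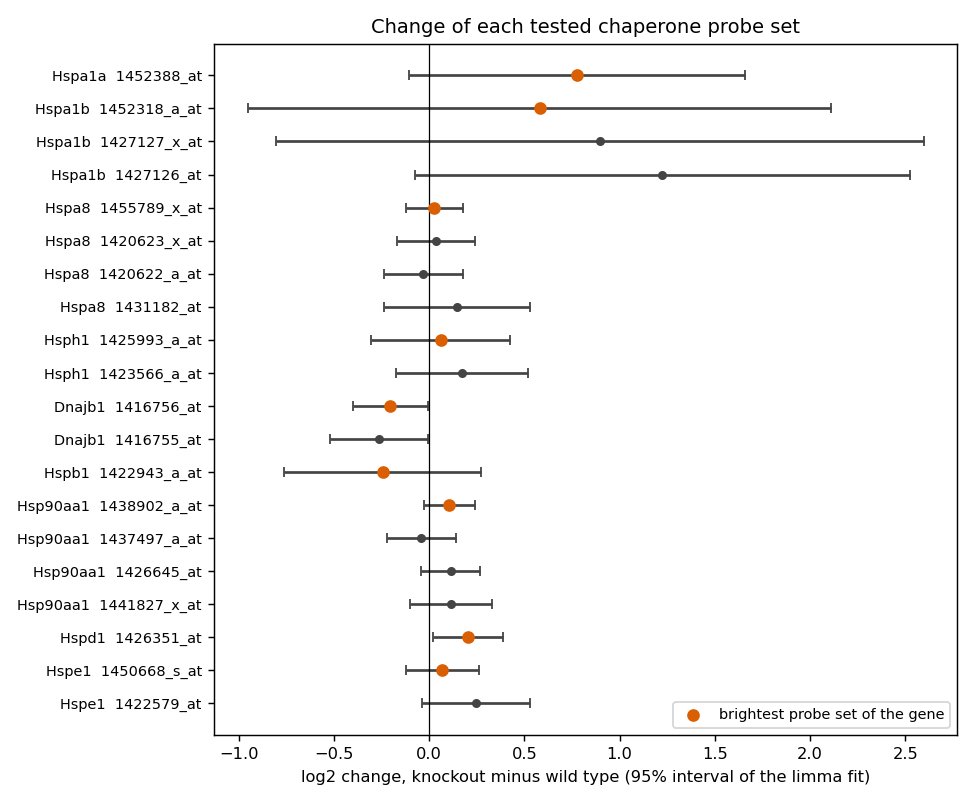
Log2 change, knockout minus wild type (x axis), of each of the 20 tested chaperone probe sets (rows), with the 95% interval of the limma fit; orange points are the brightest probe set of a gene. Intervals of Hspa1a and Hspa1b are the widest, and those of Hspd1 (above 0) and of both Dnajb1 probe sets (below 0) alone do not reach 0 before adjustment.

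The members differed widely in their spread over livers of 1 genotype. The pooled SD of log2 values within genotypes was 1.55, 1.71 and 1.26 for the 3 Hspa1b probe sets, larger than that of 99.9%, 99.95% and 99.9% of all tested probe sets, and 0.79 for Hspa1a (97.9%), where it rests on 2 livers. Probe sets partly at the floor enter that ranking with reduced spread. Of the other genes, each at its brightest probe set, Hsp90aa1 stood at the other end, with 0.10 (7.62% of tested probe sets were less variable). Hspa8 followed, with 0.12 (11.6%). Hspd1 had 0.17 (20.9%), Dnajb1 0.17 (22.4%), Hspe1 0.18 (22.7%) and Hspb1 0.27 (38.7%). Hsph1, with 0.36 (52.8%), lay near the middle. Dimmer probe sets ranked up to 0.36 (52.1%) for Hspa8, 0.28 (40.1%) for Hspe1, 0.24 (35.4%) for Dnajb1 and 0.17 (20.6%) for Hsp90aa1. The dimmer one of Hsph1 ranked lower, with 0.33 (48.5%). These ranks thus belong to probe sets rather than to genes. They were taken over probe sets of every brightness, so the part of signal level in a low rank cannot be told apart. Between the highest and the lowest liver the brightest probe set differed 2.05-fold for Hsph1, 1.60-fold for Hspd1, 1.61-fold for Dnajb1, 1.28-fold for Hspa8 and 1.27-fold for Hsp90aa1.

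The same livers were low for several members. Wild type replicate 5 was among the 2 lowest of 10 livers on 13 of the 20 tested probe sets and knockout replicate 5 on 11, against 4 or fewer for any other liver. Knockout replicate 1 was among the 2 highest on 15 of 20, knockout replicate 2 on 6 and wild type replicate 1 on 5. Several probe sets read 1 gene and all read the same arrays, so these counts carry no test. The deposited array median of knockout replicate 5 was the lowest of all (19.5, in a range up to 25.0). The score of erythroid markers, the median log2 deviation of 12 genes from their means over all livers, was highest in wild type replicate 5 (0.22) but -0.11 in knockout replicate 5, and that of neutrophil markers (11 genes) was 0.89 and 0.80, in a range over all livers from -1.30 to 0.89. Knockout replicate 3 had a neutrophil score of 0.81 and was among the 2 lowest on 1 of the 20 probe sets. The part of these cell types in the low values was not tested.

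**Figure D3:**
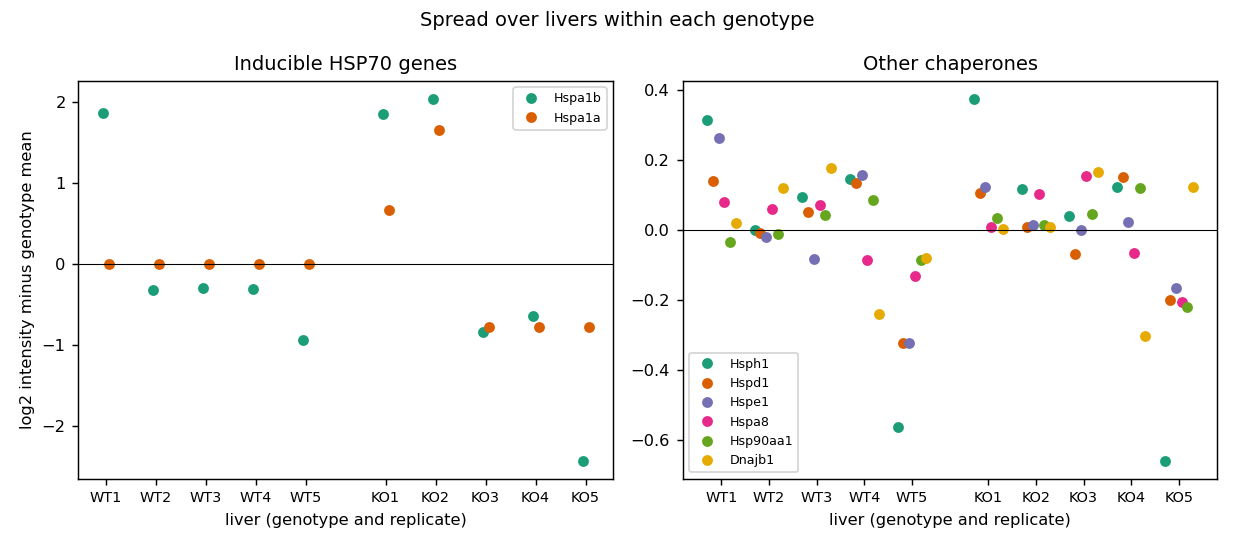
Log2 intensity minus the genotype mean (y axis; the panels have different scales) of the brightest probe set of 8 of the genes in wild type (WT) and knockout (KO) livers 1 to 5; each point is 1 gene in 1 liver. On the left, Hspa1b stands high in WT1, KO1 and KO2, and Hspa1a is at the floor in all wild type livers and in KO3, KO4 and KO5; on the right, 5 genes other than Dnajb1 lie below 0 in WT5 and KO5.

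The 2 mitochondrial genes Hspd1 and Hspe1 followed each other, but not each other alone. With genotype means removed, Hsph1 had r = 0.91 with Hspd1 and 0.86 with Hspe1. Whether their shared upstream region has a part in this was not tested. Over the 10 livers Hspd1 and Hspe1 had r = 0.83 (permutation p = 0.00438, adjusted 0.0198 over the 5 pairs computed) and rho = 0.79 (permutation p = 0.00875, adjusted 0.0219), with r = 0.73 without wild type replicate 5 and knockout replicate 4, and r = 0.88 after genotype means were removed. Hspa8 and Hsp90aa1 had r = 0.49 (permutation p = 0.153, adjusted 0.191) and rho = 0.44 (permutation p = 0.205, adjusted 0.256), and -0.14 without both livers of replicate 5.

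The 3 pairs with Hspa1b span its separate sets of high and low livers, so their values over all 10 livers cannot be read as a graded relation. For Hspa1b and Hsph1 r was 0.77 (permutation p = 0.0118, adjusted 0.0198) and rho 0.89 (permutation p = 0.00121, adjusted 0.00605), and r was 0.81 without knockout replicates 1 and 2. For Hspa1b and Dnajb1 r was -0.16 (permutation p = 0.668, adjusted 0.668) and rho -0.26 (permutation p = 0.469, adjusted 0.469), and r was 0.073 without the same livers. Hspa1a and Hspa1b had r = 0.77 (permutation p = 0.0111, adjusted 0.0198) and rho = 0.70 (permutation p = 0.0228, adjusted 0.0381), which rests on knockout replicates 1 and 2, since every other liver of Hspa1a lies under the floor. Within the 7 low livers, a division made after the values were seen and given without a test, Hspa1b had r = 0.91 with Hsph1 and -0.15 with Dnajb1. Without the livers of replicate 5 these were 0.67 and -0.81 over 5 livers. The pair Hsp90aa1 and Hsp90ab1 was not analysed here. As a description, with genotype means removed, the 10 pairs among Hspa8, Hsph1, Hsp90aa1, Hspd1 and Hspe1 had correlations of 0.42 to 0.91, while Dnajb1 had -0.44 to 0.43 with these 5 genes. All genes of a liver share its array and its cells.

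Among the 12812 tested genes that are no members, those closest to Hsph1 over the 10 livers with genotype means removed were the chaperonin subunit Cct2 (r = 0.96), the mitochondrial enzymes Idh3a (0.96) and Cs (0.96), Fem1b (0.96) and Nol8 (0.95). Closest to Hspd1 were Riox2 (0.98), Sltm (0.97), Polr2h (0.96), Cs (0.96) and Ihh (0.95). Cs, citrate synthase, thus stood in both lists. Closest to Hsp90aa1 were Ppfia1 (0.98), 6330403K07Rik (0.92), Lypla2 (0.92), Eml3 (0.91) and Tnik (0.91). For Hspa1b the closest were Ttc28, Emcn, Ppargc1b, Nfat5 and Cxxc5, at 0.93 to 0.97 over all livers and 0.73 to 0.86 within the 7 low livers; none of these 20 entries comes with a test, since each is among the best of 12812.

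The wider chaperone network, 83 genes in 9 lists of which 75 were tested, also had 0 called genes. At an unadjusted p under 0.05, 8 were higher and 3 lower in the knockout, against 5.94% and 5.44% of all genes. The median of the 75 changes was 0.039, and 44 were above 0, against 50.1% of all genes. The endoplasmic reticulum list described below held 6 of the 8 higher genes and 8 of the 44 changes above 0. Of the heat shock factors and their regulators, 3 of 4 were tested, and Hsf1 was not matched to a probe set. Hsf2 (28.3 ± 13.6 and 26.5 ± 14.1) and Hsf4 (10.7 ± 25.0 and 23.7 ± 26.6) were dim, and Hsbp1, an inhibitor of heat shock factor, averaged 559 ± 71.9 and 624 ± 37.6 (log2 change 0.16 ± 0.083, limma adjusted p = 0.560).

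Partners of HSP70 and HSP90 had medians close to that of all genes. The 12 J-domain co-chaperones had a median log2 change of 0.0013, the 6 nucleotide exchange factors 0.020, the 12 HSP90 co-chaperones 0.054 and the 5 other cytosolic HSP70 and HSP110 genes -0.038. Over all alternatives these medians stayed between -0.074 and 0.12, and each but that of the HSP90 co-chaperones changed sign under some. Hspa4, another HSP110, averaged 1266 ± 159 and 1371 ± 110.4 (limma adjusted p = 0.696), the exchange factors Bag5 179 ± 25.3 and 155 ± 37.5 (adjusted p = 0.700) and Bag1 1045 ± 198 and 1093 ± 119 (adjusted p = 0.885). Among the HSP90 co-chaperones Unc45a averaged 83.7 ± 12.4 and 65.5 ± 20.7 (limma adjusted p = 0.632) and Ahsa1, which stimulates the HSP90 ATPase, 1447 ± 199.5 and 1516 ± 189.5 (adjusted p = 0.888).

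Dnajc9, a J-domain protein that also handles histones, came nearest to a call in these lists. Its level was 1184 ± 48.9 in the knockout against 1413 ± 43.8, a log2 change of -0.26 ± 0.052 (limma adjusted p = 0.0599). It was lower with no overlap, as were 1.17% of all probe sets. Dnajc9 was called without wild type replicate 5 (log2 -0.26, limma adjusted p = 0.0410). Of the cell cycle markers 0 of 11 were called, and all 11 changes were below 0, with a median of -0.10. At an unadjusted p under 0.05, 5 were lower, against 5.44% of all genes. Summed intensities of the markers overlapped, at 32139 to 36684 in wild type and 28718 to 33693 in knockout livers. Their part in the Dnajc9 value was not tested. The brightest J-domain gene, Dnaja2, averaged 1868 ± 122 and 1885 ± 59.3 (limma adjusted p = 0.965).

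In the list of 14 genes of the cytosolic chaperonin TRiC and of prefoldin the median was 0.0006, with Pfdn4 at 500.1 ± 48.0 and 583 ± 28.6 (limma adjusted p = 0.302) and Cct2 at 3918 ± 328 and 4043 ± 252 (adjusted p = 0.878). The 10 other mitochondrial chaperones and proteases had a median of -0.048, or 0.027 with median scaling. There Hspa9, the mitochondrial HSP70, averaged 1645 ± 194 and 1756 ± 214 (limma adjusted p = 0.804) and Hscb, a J-domain protein of iron-sulphur cluster assembly, 267 ± 54.0 and 213 ± 14.4 (adjusted p = 0.431). The 5 tested small heat shock proteins had a median of -0.021, or 0.28 without wild type replicate 5. Hspb8 averaged 12.5 ± 17.7 and 39.7 ± 15.3 (limma adjusted p = 0.266), with a wild type mean under the floor, and Hspb7 81.1 ± 72.9 and 92.1 ± 42.9 (adjusted p = 0.803).

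The endoplasmic reticulum holds its own HSP70 and HSP90, which fold secreted proteins. All 8 tested genes had changes above 0 (50.1% of all genes), with a median of 0.21 and 0 called. At an unadjusted p under 0.05, 6 were higher, against 5.94% of all genes. Their summed intensity was 9458 to 9785 in wild type and 10175 to 11260.0 in knockout livers, most of it from Hspa5 and Hsp90b1. Their median log2 deviation, which is not weighted by brightness, was -0.13 to -0.037 in wild type and 0.020 to 0.14 in knockout livers. Hsp90b1, the HSP90 of the reticulum, averaged 3483 ± 221 and 4012 ± 185 (log2 change 0.21 ± 0.056, limma adjusted p = 0.166). It was higher with no overlap, as were 1.10% of all probe sets. Hspa5, its HSP70, averaged 4610 (4609.9 before rounding) ± 189 and 5025 ± 308 (log2 change 0.12 ± 0.054, limma adjusted p = 0.476). Whether this list differs from the members was not tested.

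Immediate early genes, which respond within minutes to handling or stress, had a median of 0.23, with 8 of 11 above 0 and 0 called. Jund averaged 709 ± 218 and 775 ± 147 (limma adjusted p = 0.829) and Ier3 112 ± 12.2 and 86.3 ± 22.1 (adjusted p = 0.499). In the 3 livers with high Hspa1b their score was -0.23 (wild type replicate 1), -0.10 (knockout replicate 1) and 0.33 (knockout replicate 2), the lowest, an intermediate and the highest of all 10.

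**Figure D4:**
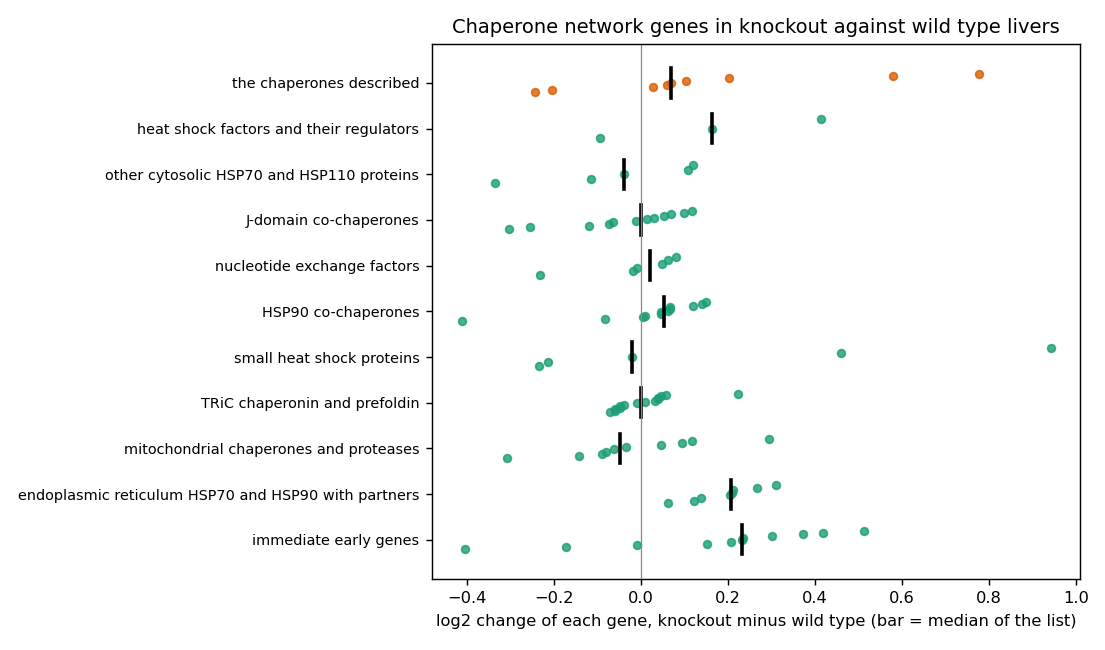
Log2 change, knockout minus wild type (x axis), of each tested gene of the 9 chaperones described (orange) and of 9 chaperone lists and the immediate early genes (green), with the median of each list as a black bar. Medians of the lists run from -0.048 to 0.23; the 8 genes of the endoplasmic reticulum list all lie above 0 with a median of 0.21.

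The cells and arrays behind these values were as follows. Zfp36l2 itself was lower in the knockout, at 102 ± 11.3 against 434 ± 91.0 (log2 change -2.08 ± 0.13, limma adjusted p = 1.47e-06) on its brightest probe set; another was dim, with a change of -0.25 (limma adjusted p = 0.858), and one was under the filter. The brightest hepatocyte and red cell markers were near level, with Afp at 16358 and 16287 and Slc4a1 at 7929 and 7896. Slc4a1 was the 1 of 12 erythroid markers with a change above 0 (0.00064). The hepatocyte marker with the lowest p, Fgb, averaged 3922 ± 761 and 5644 ± 1443 (log2 change 0.51, limma adjusted p = 0.198). Of 8 hepatocyte markers 5 were above and 3 below 0. Megakaryocyte markers were lower in the knockout, with 5 of 9 called (summed intensity 3755 to 5465 in wild type, 1519 to 2549 in knockout livers), and among the called genes the changes furthest from 0 were those of Gp5 (-1.59), Pf4 (-1.39), Ppbp (-1.38) and Itgb3 (-1.11). Of 12 erythroid markers 11 were below 0 (median -0.23, 0 called, 9 at an unadjusted p under 0.05; 32266 to 41302 and 30785 to 35255). Monocyte and macrophage markers were above 0 in 11 of 11, with a median of 0.40, 0 called and 5 at an unadjusted p under 0.05. Their summed intensity was 3495 to 7035 in wild type and 6339 to 7280 (7279.5 before rounding) in knockout livers. Neutrophil markers were above 0 in 9 of 11, with a median of 0.93, 0 called and 8 higher at an unadjusted p under 0.05. Their sums were 6394 to 28085 and 14216 to 26904. Ank1 (erythroid, -0.29, limma adjusted p = 0.0640), Lyz2 (macrophage, 1.28, adjusted p = 0.0955) and Ltf (neutrophil, 1.84, adjusted p = 0.0972) came nearest to a call. Endothelial (median 0.18), stellate (0.069) and hepatocyte (0.059) lists had 0 called, with 2, 0 and 2 genes higher at an unadjusted p under 0.05. Over all genes 5.94% were higher and 5.44% lower at that threshold. The share of these cells in any chaperone value was not tested.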

How the data were processed

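RNA from 10 fetal livers, 1 per array, was measured on a mouse Affymetrix expression array, with biotin-labelled cRNA made from 1 µg of total RNA, per the labels' protocols. The deposited intensity values were taken to be linear and background-subtracted because of their range (from -1090.1 to 18272), and were used as given. Their software and scaling: not given in the sources used here. Array medians ran from 19.5 to 25.0. Values were quantile-normalized, values under 16 set to 16, and log2 taken. Probe sets with a mean log2 at or under the 40th percentile (18.4 in linear units) were left out, which kept 27022. This includes 35.6% with a value under the floor in at least 1 liver. Changes of such dim genes depend on the floor and can move either way with it. With a floor of 32 the log2 change was 0.76 for Hspa1b and 0.38 for Hspa1a, against 0.58 and 0.78.

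Knockout was compared with wild type by limma 3.58.1 in R 4.3.3 (genotype as the only term, eBayes with trend). Its two-sided p-values were adjusted by Benjamini and Hochberg over every tested probe set; genes with an adjusted p under 0.05 are "called". A gene is its brightest tested probe set. Genotype and replicate number come from the titles. The numbers were not taken as pairs in the main fit, and a fit with them as a block is given below. Same-numbered wild type and knockout livers correlated at 0.03 to 0.13 in their deviations from genotype means. Whether they share a litter or batch cannot be told from this. For 100000 resamples a permutation test is named as such, and complete ones as exact. A floor of 16 was preferred to the lowest positive value, which turns dim values into large negative log2 values.

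The members and lists were chosen with earlier results of these data known. Named are all members, Zfp36l2, up to 4 called genes of a list or else genes from its lowest p and its highest mean, and the 5 genes most like Hspa1b, Hsph1, Hspd1 and Hsp90aa1; Hsf2 and Hsf4 were added after their values were seen. In 5 simulations, noise was drawn independently for each of 45037 probe sets from a normal distribution with its real mean and SD. Changes were planted only in probe sets above the filter. Of these limma called 31.2% at 1.5-fold and 55.2%, 69.6% and 81.2% at 2-, 3- and 4-fold. Of its calls 5.27% were false, and it made 0 calls where nothing was changed. Variation shared between probe sets of a liver was not simulated, so these shares may not hold for the real livers. Alternatives covered normalization, floor, offset, filter, variance model, array weights, pairing and leaving out each liver. Plots used Python 3.11.15 with matplotlib 3.10.9.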

Additional observations from a re-analysis of the deposited data

Results flagged for a closer look

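In 3 of 40 groups of 5 livers that were not all at the floor, 1 chaperone value stood apart from the others of its genotype by Dixon's ratio, where chance gives about 1 in 20 groups, or 2 here. Hspa1b was high in wild type replicate 1, at a log2 value of 7.71 on its brightest probe set (nearest 5.54) and 6.54 on the dimmest (nearest 4.34). Hspe1 was low in knockout replicate 5 on its dimmer probe set, at 9.98 (nearest 10.46).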

How the results depend on the processing

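Under 20 alternatives 0 chaperone probe sets were called, and the lowest adjusted p of any was 0.100 (Hspd1, with the replicate block). Of 185 values of the 9 genes, which add the mean over each gene's tested probe sets (0.90 for Hspa1b, 0.12 for Hsph1 and 0.16 for Hspe1) to these alternatives, 6 changed sign and 0 were called: Hspa8 (-0.031 without normalization, -0.0040 without wild type replicate 5, -0.013 without knockout replicate 3), Hsph1 (-0.080 without wild type replicate 5, -0.033 without knockout replicate 1) and Hspe1 (-0.012 without wild type replicate 5). Their highest values with 1 liver left out were 0.078, 0.23 and 0.14. Probe sets called over the whole array numbered 57 (29 higher, 28 lower), but 94 with median scaling (69 and 25), 11 with the floor at the lowest positive value, 12 with a floor of 32, 4 without a filter, 9 without trend, 103 with array weights and 13 (without wild type replicate 4) to 168 (without wild type replicate 5) when 1 liver was left out. With the replicate number as a block 179 were called. The titles state no animal or litter shared by a number. Wild type livers 3, 4 and 5 correlated best with the knockout liver of their own number, and livers 1 and 2 with another. Whether same-numbered livers share a litter or batch cannot be told here. In the network lists 0 genes were called, or 1, Dnajc9, with array weights, with the replicate block and without wild type replicate 5 (left out singly, 0 to 1). Median scaling moved 4 list medians by more than the spread between livers: J-domain co-chaperones 0.069, HSP90 co-chaperones 0.12, mitochondrial chaperones 0.027 and endoplasmic reticulum genes 0.28. That scaling moved the median change of all probe sets from -0.0043 to 0.052. The cause of these shifts was not tested. Hspa1a did not pass the filter with the lowest-positive floor, with log2 of value plus 32, with the filter at the 60th percentile and without knockout replicate 2. Hspa1a and Hspb1 lie near the floor, which limits what their values can show, and 5 livers a group limit the precision of all others.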
